A study of Mus musculus with 41 samples.

Results

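Messenger RNAs of 10 skeletal muscle genes were followed across 41 mouse melanomas. They were Acta1, Ckm, Mb, Myh1, Myh2, Myh4, Mylpf, Tnnt3, Tnnc2 and Atp2a1, chosen by name, with earlier results of these data known: every probe set that carries 1 of these symbols and no other was used, which gave 15 of the 34958 probe sets with 1 gene, and 10 of 18194 genes. A gene with more than 1 probe set is represented by its brightest on average. All 10 were among the 14319 genes that passed the filter on low values, which asked for a level above the 40th percentile of the array in at least 3 arrays. Myh4 was above that level in 5 arrays, Myh2 in 14, Tnnt3 in 16 and Myh1 in 21. These genes could pass only through tumours in which they were high, and their passing supports nothing about their spread.

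The tumours arose in iBIP mice, in which doxycycline switches on a BRAF transgene in melanocytes that also lack the Ink4a/Arf locus. All groups share this strain and had been on doxycycline. The 4 tumours called day 0 had it still, and it was taken out of the drinking water 1 day (7 tumours), 2 days (5), 3 days (6), 6 days (4), 9 days (3), 16 days (1) or 29 days (1) before collection of the others. The 10 tumours called late had been off the drug for 63 days (replicates 1, 2 and 3), 77 days (4 and 5), 90 days (6), 121 days (7 and 8), 136 days (9) and 163 days (10). Replicates are numbered in the order of deposit. Tumours were cut by hand, the skin was trimmed away, and a piece of 10 to 50 mg was used, so each array reads a mixture of tumour and host cells. The labels give no separate mouse for each tumour, nor the site on the body, the mice's age, the promoter of the transgene or whether a late tumour had regrown. P-values therefore measure only the spread between these samples.

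Fast skeletal muscle fibres contract by sliding thick filaments, built of myosin heavy and light chains, along thin filaments of actin. Calcium released into the fibre binds troponin C, the other troponins pass the signal to the thin filament, and a calcium pump then empties the cytoplasm. Muscle lies close under the skin of mice and carries these messengers at very high levels, while they are not part of the melanocyte programme. In a bulk sample, fewer cells of a type and less RNA per cell cannot be told apart.

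The labelled tissue was checked first. Sox10, a melanocyte and Schwann cell transcription factor, lay between 8.30 and 11.28 (log2 intensity) in the 41 tumours, and Mitf, the melanocyte master regulator, between 7.24 and 9.82. The pigment gene Tyr did not pass the filter, and Tyrp1 ranged from 4.78 to 8.32, close to the lowest level on the arrays (4.31) in some tumours. The array number per group limits the precision of every value. Labelling and hybridization controls (dap and bioD) placed the arrays in 3 sets of 16, 14 and 11. Days 2, 3 and 6 lie wholly in set 1, with day 1 replicate 4. Most of day 1 (6 tumours) shares set 2 with late replicates 1 to 8, and days 0, 9, 16 and 29 share set 3 with late replicates 9 and 10. The Gapdh 3′ to 5′ gap, the log2 signal of the control probe set at the 3′ end of Gapdh minus that at its 5′ end, widens when RNA is broken or its copying stops short. It was above 2 in 9 tumours, 8 of them late and 1 of day 9, and at most 1.04 in the other 32.

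The 3 heavy chain genes Myh2, Myh1 and Myh4 lie on chromosome 11, and they and Acta1 did not all have the same highest tumour, as described further on. Their promoter windows are therefore shown: the 250 bases before the start of the RefSeq transcript (GRCm38.p6), at chr8:123894776-123895025 on the minus strand for Acta1 and, on the plus strand, at chr11:67199852-67200101 for Myh1, chr11:67170777-67171026 for Myh2 and chr11:67237562-67237811 for Myh4. Each reads 5′ to 3′, and capitals mark E-boxes (CANNTG, the sequence that MyoD family factors bind), MEF2 sites and CArG boxes (bound by serum response factor).
Acta1: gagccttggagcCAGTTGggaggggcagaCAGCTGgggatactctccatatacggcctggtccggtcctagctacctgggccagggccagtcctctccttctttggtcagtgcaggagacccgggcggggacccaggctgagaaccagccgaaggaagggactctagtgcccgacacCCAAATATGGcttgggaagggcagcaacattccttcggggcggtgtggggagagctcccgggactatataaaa
Myh1: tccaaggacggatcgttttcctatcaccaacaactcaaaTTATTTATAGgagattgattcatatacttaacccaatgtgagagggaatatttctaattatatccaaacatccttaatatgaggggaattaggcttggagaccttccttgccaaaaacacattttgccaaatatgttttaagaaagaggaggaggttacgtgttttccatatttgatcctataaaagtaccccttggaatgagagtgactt
Myh2: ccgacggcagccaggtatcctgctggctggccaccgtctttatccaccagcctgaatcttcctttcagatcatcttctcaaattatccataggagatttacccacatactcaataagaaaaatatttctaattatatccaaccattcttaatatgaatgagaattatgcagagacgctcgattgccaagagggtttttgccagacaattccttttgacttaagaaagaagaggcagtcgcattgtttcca
Myh4: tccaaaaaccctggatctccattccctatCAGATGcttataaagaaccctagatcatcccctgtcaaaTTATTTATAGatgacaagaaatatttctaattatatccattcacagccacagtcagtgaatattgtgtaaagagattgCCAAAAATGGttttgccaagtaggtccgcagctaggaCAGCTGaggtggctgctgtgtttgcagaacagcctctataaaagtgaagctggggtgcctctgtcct

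RefSeq windows were matched by symbol for 9 of the 10 genes, all but Tnnt3, with 11 windows since Mb had 3. Motifs were searched on both strands, and a match describes letters and no binding. The same MEF2 match, TTATTTATAG, stood 211 bases before the Myh1 start and 182 before the Myh4 start, and no window of the other 7 matched genes held a MEF2 site, which 2.92% of 32851 windows of this length in RefSeq do. CArG boxes were found for Acta1 (CCAAATATGG, 73 bases before the start) and Myh4 (CCAAAAATGG, 104 bases before), against 1.47% of all windows. E-boxes were common: 7 of the 9 genes had at least 1, all but Myh1 and Myh2, and so did 66.2% of all windows. TATAAA was present for 3 genes, Acta1, Myh1 and Myh4, against 12.4% of all windows, and on the minus strand 1 such match lies inside each of the MEF2 matches.

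High levels of the muscle messengers were found in single tumours of most groups, early and late. The plot of differences from day 0 shows it tumour by tumour.

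**Figure D1:**
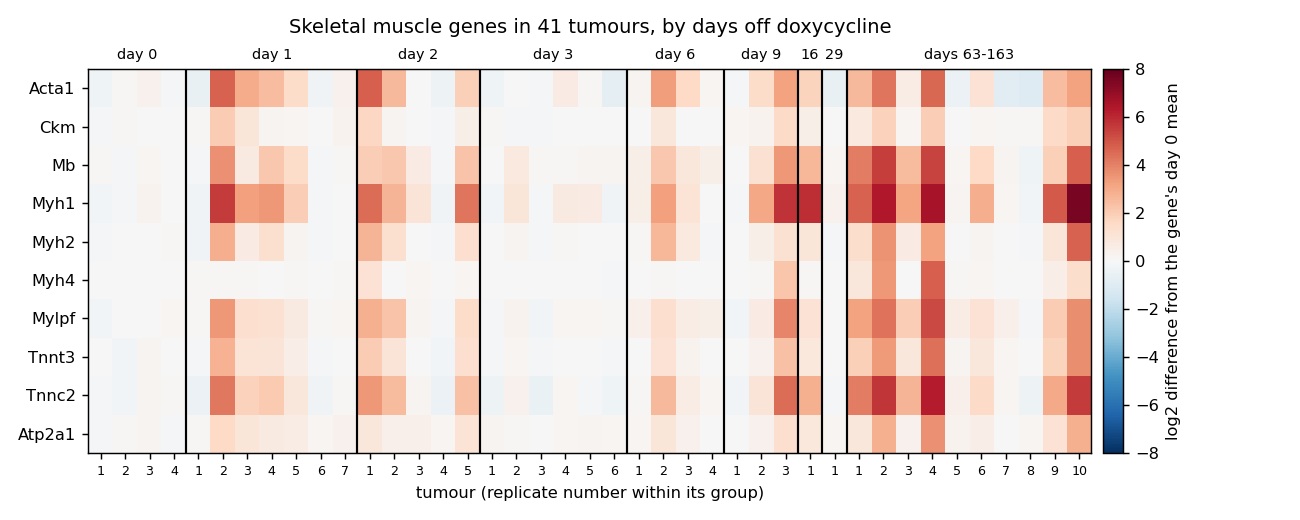
Log2 difference of each of the 10 muscle genes (lines) from its own day 0 mean in each of the 41 tumours (columns, by days off doxycycline and replicate number). Late replicates 2, 4 and 10, day 1 replicate 2, day 2 replicate 1 and day 9 replicate 3 stand out in most genes, while the 6 tumours of day 3 stay near day 0.

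A muscle score, the mean log2 value of the 10 genes in 1 tumour, describes this. In the 4 day 0 tumours it was 5.41, 5.48, 5.66 and 5.53. The 7 tumours of day 1 ran from 5.37 to 8.63 with a median of 6.33, and the 5 of day 2 read 8.13, 7.04, 5.79, 5.35 and 7.18. Both groups thus contain tumours at the day 0 level beside tumours well above it. The 6 of day 3 lay between 5.39 and 5.78, with a median of 5.54, and stayed close to the day 0 range. At day 6 the score was 5.71, 7.37, 6.14 and 5.65, at day 9 it was 5.45, 6.42 and 8.47, and the single tumours of days 16 and 29 read 7.27 and 5.50. The late tumours held both ends of the series: their lowest, replicate 8 at 5.31, was the lowest of all 41, their highest, replicate 4 at 10.13, was the highest, and their median was 7.19. Replicates 7 and 8 were both collected after 121 days and read 5.55 and 5.31, whereas replicates 4 and 5, both after 77 days, read 10.13 and 5.66.

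The count of tumours tells the same by group. At least 8 of the 10 genes exceeded their highest day 0 value in 4 of 7 tumours of day 1, 3 of 5 of day 2, 0 of 6 of day 3, 2 of 4 of day 6, 2 of 3 of day 9, the tumour of day 16, not that of day 29, and 7 of 10 late tumours. An excess of over 1 log2 unit in at least 5 genes was met by 2, 3, 0, 1, 1, 0, 0 and 5 tumours in the same order. The share of all genes that passed these limits in each tumour was not computed. The counts are therefore a description only and do not set the 10 genes apart from other genes.

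**Figure D2:**
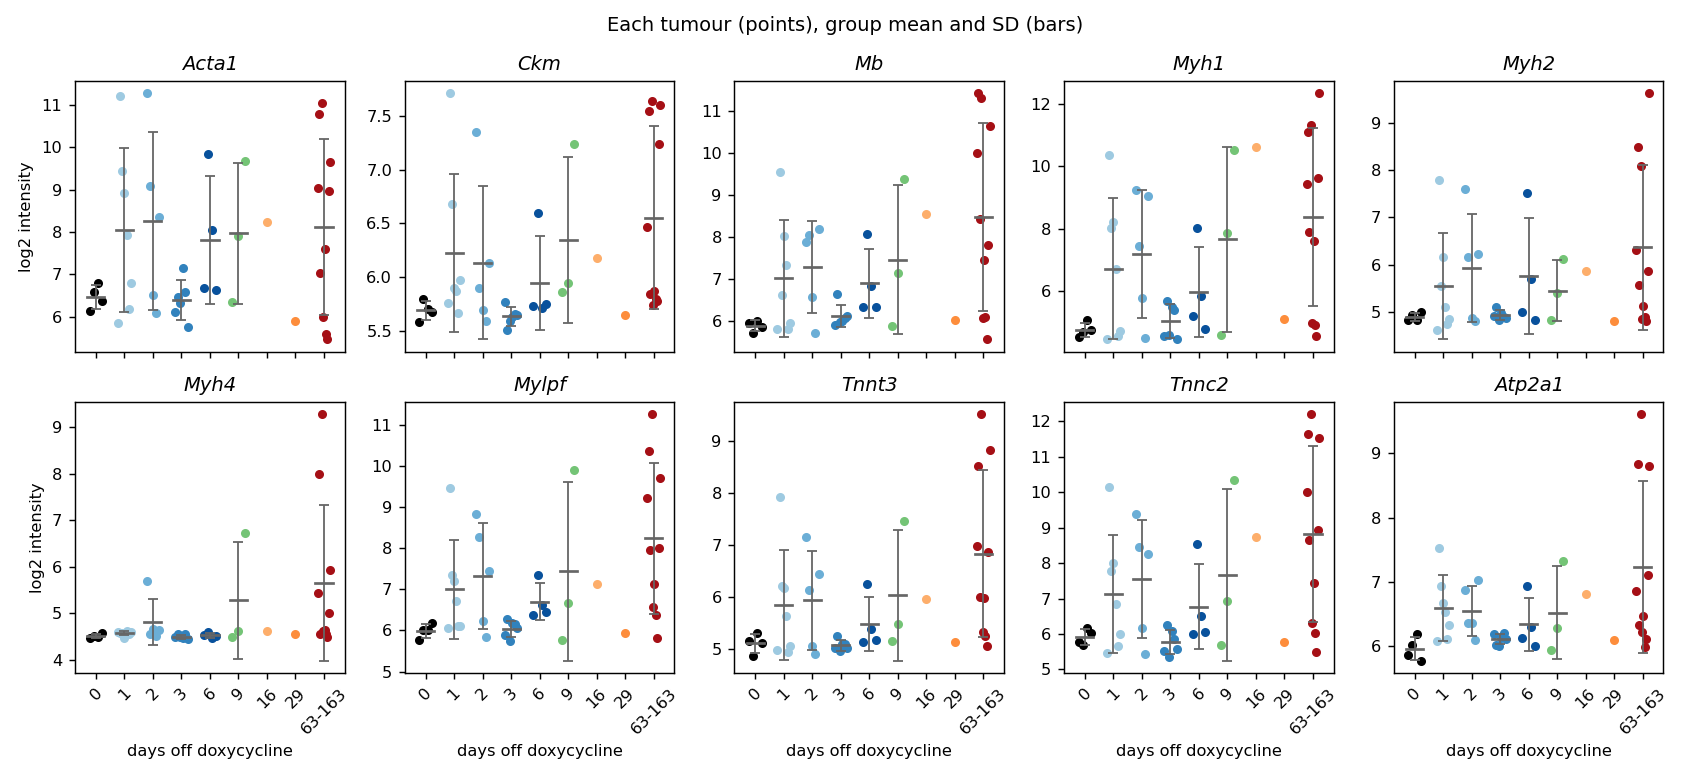
Log2 intensity of the 10 genes in each tumour (points) by days off doxycycline, with the mean (line) and SD (bars) of groups of more than 1 tumour; each panel has its own axis. Within days 1, 2, 9 and 63 to 163 most genes run from the day 0 level to several log2 units above it.

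Among the filament genes, Myh1, which encodes the heavy chain of fast type IIX fibres, spread most. Its 4 day 0 values were 4.52, 4.67, 5.05 and 4.74. At day 1 it ran from 4.45 to 10.36 (median 6.71), at day 2 it read 9.23, 7.44, 5.78, 4.49 and 9.05, and at day 3 it ran from 4.46 to 5.69 (median 4.99). Low and high tumours thus stood side by side at days 1 and 2, and the day 3 tumours stayed within 1 log2 unit of day 0. Myh1 read 5.19, 8.02, 5.83 and 4.77 at day 6, 4.57, 7.86 and 10.53 at day 9, 10.64 at day 16 and 5.11 at day 29. In the late tumours it ran from 4.54 in replicate 8 to 12.35 in replicate 10, with a median of 8.66, and 3 of these 10 (replicates 5, 7 and 8) lay below the highest day 0 tumour.

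Myh2 (the type IIA heavy chain) and Myh4 (the type IIB heavy chain, of the fastest fibres) shared most of their highest tumours, in a different order. Myh2 was between 4.82 and 4.99 at day 0 and highest in late replicate 10 (9.62), followed by late replicates 2 (8.49) and 4 (8.08), day 1 replicate 2 (7.79), day 2 replicate 1 (7.59) and day 6 replicate 2 (7.52). Myh4 was between 4.48 and 4.57 at day 0 and highest in late replicate 4 (9.27), with 7.99 in late replicate 2, 6.72 in day 9 replicate 3, 5.93 in late replicate 10 and 5.70 in day 2 replicate 1. In all 7 tumours of day 1 Myh4 stayed between 4.48 and 4.62, near the lowest level on the arrays, and this includes replicate 2, whose Myh2 and Myh1 were 7.79 and 10.36. At that level a small amount of Myh4 messenger would not show, and a level of 1 probe set cannot be set against that of another.

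Acta1, the actin of skeletal muscle thin filaments, read 6.14, 6.59, 6.80 and 6.36 at day 0. Its highest values came early: 11.28 in day 2 replicate 1 and 11.21 in day 1 replicate 2, ahead of late replicates 4 (11.05) and 2 (10.78). The late tumours ran from 5.46 to 11.05 with a median of 8.29, and 4 of day 1 (7 tumours, 5.85 to 11.21, median 7.94) exceeded every day 0 tumour by more than 1 log2 unit. Late replicate 10, the top tumour for Myh1 and Myh2, had 9.66. Mylpf, the regulatory light chain of fast myosin, lay between 5.76 and 6.17 at day 0, between 6.07 and 9.45 at day 1 (median 6.71), between 5.74 and 6.27 at day 3 (median 6.10) and between 5.81 and 11.25 in the late tumours (median 7.99). Its highest tumours were late replicates 4 and 2 (10.35) and day 9 replicate 3 (9.89).

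Of the calcium genes, Tnnc2 encodes the fast fibre's troponin C. It read 5.79, 5.68, 6.16 and 6.03 at day 0, 9.4, 8.47, 6.16, 5.45 and 8.26 at day 2, and 6.01, 8.53, 6.50 and 6.07 at day 6. Day 1 ran from 5.46 to 10.15 (median 6.84) and day 3 from 5.36 to 6.25 (median 5.72). At day 9 the 3 tumours read 5.70, 6.94 and 10.36, so 1 tumour carried most of that group's mean. The late tumours ran from 5.48 to 12.20 (median 8.80), and replicates 7 and 8 fell within or below the day 0 range. Tnnt3, which encodes fast troponin T, ran from 4.86 to 5.31 at day 0 and from 5.05 to 9.52 in the late tumours (median 6.44). Atp2a1, the calcium pump SERCA1, ran from 5.77 to 6.19 at day 0 and from 5.98 to 9.61 in the late tumours (median 6.67).

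For oxygen and energy supply, Mb (myoglobin, the oxygen store of muscle) read 5.97, 5.72, 6.02 and 5.87 at day 0. It ran from 5.82 to 9.56 at day 1 (median 6.62), read 7.89, 8.05, 6.58, 5.72 and 8.20 at day 2, and ran from 5.57 to 11.42 in the late tumours (median 8.13). Its top tumour was late replicate 2, then late replicates 4 (11.31), 10 (10.65) and 1 (10.00), all of them far above the day 0 tumours. Ckm, the muscle creatine kinase that rebuilds ATP, had the smallest range of the 10 over the 41 tumours; it ran from 5.58 to 5.80 at day 0 and from 5.74 to 7.64 late (median 6.17). Its highest value, 7.71, was that of day 1 replicate 2.

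Not every probe set of these genes showed the pattern. The second Myh1 probe set spanned 8.50 log2 units over the 41 tumours, against 7.90 for the one used. Another set each for Ckm, Mb, Myh1 and Myh4 spanned 0.48, 0.44, 0.40 and 0.26 log2 units, and that of Myh4 was above the filter level in 0 arrays.

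To size this spread, the residual SD of each gene after removal of the group means was set beside that of all genes tested. Myh1 had 2.15 log2 units, 9th of 14319 genes, Tnnc2 1.77 (44th), Acta1 1.70 (50th), Mb 1.48 (91st) and Mylpf 1.32 (134th). The other 5 followed with Myh2 1.19, Tnnt3 1.09, Myh4 0.95, Atp2a1 0.79 and Ckm 0.65. The median of the 10 was 1.26 and that of all genes 0.25. All 10 lay above the 90th percentile of genes (0.54), 9 above the 95th (0.71) and 5 above the 99th (1.29). This is a description, with no test, since the genes had been chosen with earlier results in view.

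**Figure D3:**
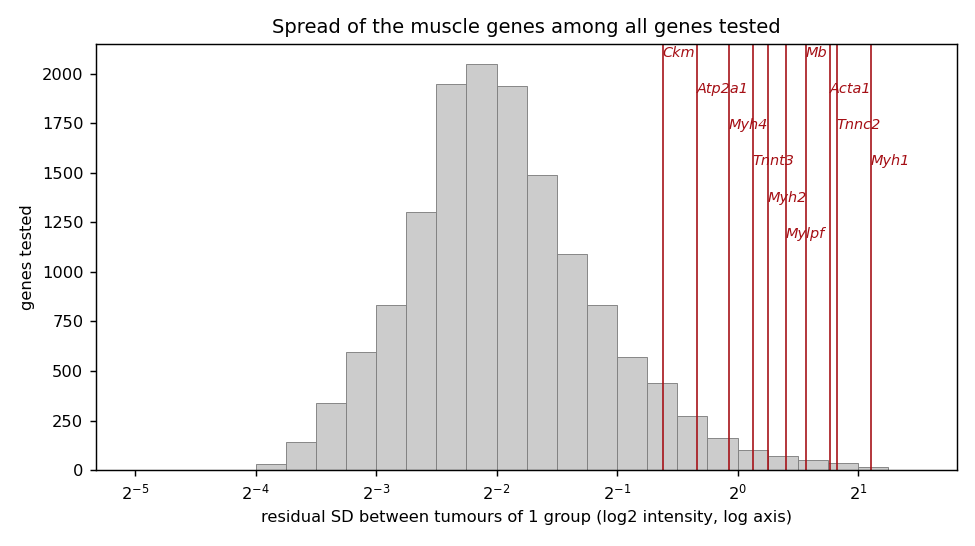
Histogram of the residual SD between tumours of 1 group for the 14319 genes tested (log2 intensity, on a log axis), with the 10 muscle genes as vertical lines. They lie between 0.65 (Ckm) and 2.15 (Myh1), to the right of the median of all genes at 0.25.

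Other genes shared the pattern over the 41 tumours. The 12 whose log2 values correlated most with the muscle score had Pearson's r from 0.948 to 0.986, as a description across tumours that share arrays and quality. They were Myl1 (fast myosin light chain, 0.986), Ttn (titin, the elastic filament, 0.982), Mybpc1 (a myosin binding protein, 0.978), Tnni2 (fast troponin I, 0.976), Csrp3, Actn2 (alpha-actinin of the Z disc), Myom2, Myot, Smpx, Car3 (carbonic anhydrase of muscle and fat), Myoz2 and Tcap. All but Car3 were in the lists of muscle genes. Among the 10 members the lowest r with the score was 0.786.

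Whether the level followed the days off doxycycline was tested with limma over all 41 tumours, with Benjamini-Hochberg adjustment over all 14319 genes. At days 1, 2, 3, 6 and 9 against day 0, 0 of 10 genes were called, and 0 had an unadjusted p under 0.05 at any of these days, while 13.8%, 15.1%, 21.3%, 12.2% and 4.56% of all genes were called. The median difference of the 10 genes was 0.87, 1.19, 0.01, 0.79 and 1.19 in the same order of days, with medians of all genes between -0.02 and 0.03. The lowest adjusted p in these comparisons were 0.328, 0.232, 0.861, 0.488 and 0.288. Day 0 lies in set 3 of the arrays, days 2, 3 and 6 in set 1, and day 1 in sets 1 and 2. Day and set are therefore tied in the comparisons of days 1, 2, 3 and 6. With a term for the set, 79, 134 and 70 of all genes were called at days 2, 3 and 6. That fit links set 1 to the other sets through day 1 replicate 4 alone. Intervals were wide: Myh1 differed by 2.45 ± 1.39 (SE, log2) at day 2, with a 95% interval from -0.36 to 5.27, and by 0.28 ± 1.33 at day 3, from -2.43 to 2.99, so that a p above the threshold does not show equal levels. In an F test of any difference among the groups, 60.7% of all genes were called and 1 of the 10, Tnnc2 (adjusted p = 0.0481). Before adjustment 5 of 10 had a p under 0.05, a threshold at which the share of all genes was not computed. Tnnc2 lost this call in 28 of the 41 fits that left out 1 tumour each.

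In the late tumours 6 of the 10 genes rose against day 0, and 26.3% of all genes rose (46.4% changed). The fit of all 41 tumours, which compares 10 late with 4 day 0 tumours, put Myh1 up by 3.63 ± 1.22 (SE, log2; adjusted p = 0.0150), a 12.4-fold difference of means. Tnnc2 rose by 2.91 ± 1.01 (adjusted p = 0.0175), Mb by 2.59 ± 0.84 (0.0119) and Mylpf by 2.25 ± 0.75 (0.0142). Tnnt3 rose by 1.72 ± 0.62 (0.0223) and Atp2a1 by 1.27 ± 0.45 (0.0208). Without day 0 replicate 1 or 4 the call of Atp2a1 was lost, and without day 0 replicate 2 that of Tnnt3, with adjusted p up to 0.0568 and 0.0579. The other 4 did not pass: Acta1 differed by 1.64 ± 0.97 (95% interval -0.33 to 3.62, adjusted p = 0.164), Myh2 by 1.47 ± 0.68 (0.0739), Myh4 by 1.14 ± 0.54 (0.0838) and Ckm by 0.86 ± 0.37 (0.0564). Fitted on the late and day 0 tumours alone, only Myh1 kept its call (adjusted p = 0.0447, 0.0506 to 0.123 for the other 5). That fit called 5378 of all 14319 genes, against 6648 in the fit of all tumours. With array weights 9 of 10 were called (8036 of all genes), with Ckm (0.0397), Myh2 (0.0331) and Myh4 (0.0291) added. With a term for the spike-in set 7 were called (4306 of all genes). Ckm (1.73 ± 0.52, adjusted p = 0.0123) and Myh2 (2.86 ± 0.97, 0.0247) were added and Mylpf was lost (2.87 ± 1.12, 0.0514). All day 0 tumours lie in set 3, so these differences rest on late replicates 9 and 10, both with a gap over 2. Averaging all probe sets per gene put the difference of Mb at 1.25, still called. Over the 10 the median was 1.68, and over all genes 0.05. For each of the 10 genes the late group overlapped day 0, through replicate 8 in every gene.

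The Gapdh gap moved with these levels. Within groups, that is with each group's mean removed, all 10 genes had a called positive slope on the Gapdh gap, where 14.3% of all genes had a positive and 21.0% any called slope. The slope in log2 units per log2 unit of the gap was 1.49 ± 0.39 (SE) for Myh1, 1.32 ± 0.31 for Tnnc2, 1.09 ± 0.26 for Mb, 1.00 ± 0.23 for Mylpf and 0.92 ± 0.34 for Acta1. It was 0.81 ± 0.19 for Tnnt3, 0.78 ± 0.22 for Myh2, 0.57 ± 0.18 for Myh4, 0.56 ± 0.14 for Atp2a1 and 0.41 ± 0.12 for Ckm. limma's adjusted p ran from 0.00197 (Mylpf) to 0.0464 (Acta1), and the median over all genes was 0.04. Averaging all probe sets per gene put the slopes of Mb, Ckm and Myh4 at 0.58, 0.24 and 0.28, still called. The call of Acta1 was lost in 18 of the 41 fits without 1 tumour, that of Myh4 without day 9 replicate 3, late replicate 4 or late replicate 8, and those of Ckm and Myh2 without late replicate 10 (adjusted p up to 0.188, 0.118, 0.0501 and 0.0865).

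**Figure D4:**
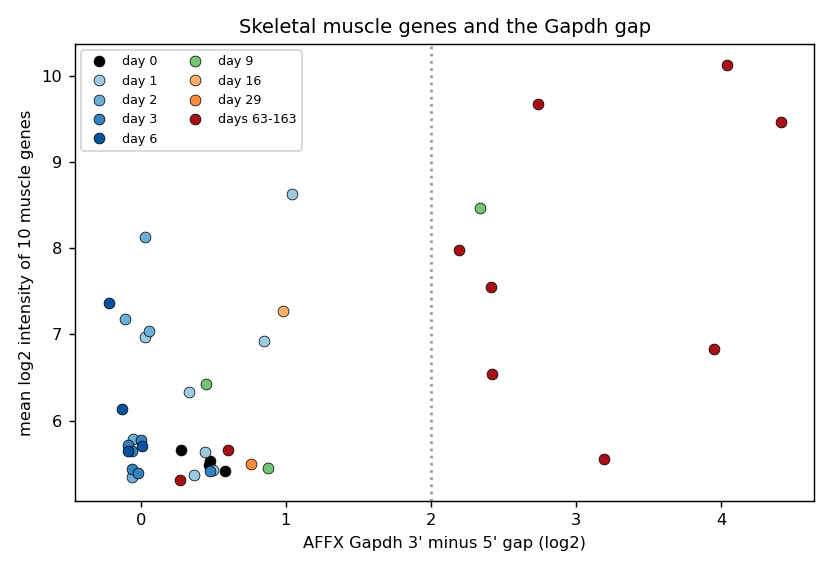
Muscle score (mean log2 intensity of the 10 genes) against the Gapdh 3′ to 5′ gap (log2) in the 41 tumours, coloured by days off doxycycline, with a dotted line at a gap of 2. Of the 9 tumours above 2, late replicate 7 has a score of 5.55 at a gap of 3.19, and day 2 replicate 1 reaches 8.13 at a gap of 0.03.

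The gap split the tumours into 2 clusters, and inside neither did 1 of the 10 genes reach an unadjusted permutation p under 0.05. Among the 32 tumours with a gap of at most 2, Pearson's r of the 10 genes with the gap ran from -0.07 to 0.27 and Spearman's rho from -0.16 to 0.17, with permutation p from 0.128 to 0.901 for r and from 0.341 to 0.980 for rho. Among the 9 tumours above 2, r ran from 0.05 to 0.52 and rho from 0.05 to 0.35 (exact p from 0.162 to 0.904 and from 0.359 to 0.912). Without the 2 tumours farthest from the median gap, r ran from -0.39 to -0.02 in the first cluster and from -0.57 to -0.20 in the second. With each group's mean removed, the slope among the 32 tumours was positive for all 10 genes, from 0.06 ± 0.20 (SE, Myh4) to 1.37 ± 0.72 (Mylpf), with 1.21 ± 1.07 for Tnnc2, 1.19 ± 1.31 for Acta1 and 1.03 ± 0.41 for Ckm. In limma 0 of these slopes were called, while 0.0210% of all genes were. Before adjustment 1, that of Ckm, had a p under 0.05 (0.0195), a threshold at which the share of all genes was not computed. Over all 41 tumours the slopes were 1.32 ± 0.31 for Tnnc2, 0.92 ± 0.34 for Acta1 and 0.41 ± 0.12 for Ckm, so the errors are wider among the 32, and a lost call there does not show a lost relation. Single tumours departed from the relation: late replicate 7 had a gap of 3.19 and a score of 5.55, late replicate 3 a gap of 3.95 and a score of 6.83, while day 2 replicate 1 had 0.03 and 8.13, and day 6 replicate 2 had -0.22, the lowest gap, and 7.37.

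Within the 10 late tumours r ran from 0.44 (Myh4) to 0.68 (Myh1 and Tnnc2) and rho from 0.45 to 0.66. Permutation p for r ran from 0.0313 to 0.198 and for rho from 0.0430 to 0.192, with 5 and 4 of 10 under 0.05, and r fell to between 0.11 and 0.51 without the 2 tumours farthest from the median gap. With limma's fit of the late tumours alone, 0 of 10 slopes were called (adjusted p from 0.101 to 0.347), while 5.94% of all genes were. Before adjustment 7 of 10 were under 0.05, a threshold at which the share of all genes was not computed. Without late replicate 7, 1 was called, that of Myh1 (slope 1.58, adjusted p = 0.0427). In the 7 tumours of day 1, where replicate 2 had both the highest score and the widest gap (1.04), r ran from 0.33 to 0.84 and rho from -0.07 to 0.50, with exact p from 0.0177 (Ckm) to 0.465 for r and from 0.267 to 0.906 for rho. In the 6 of day 3, r ran from -0.73 to 0.09 and rho from -0.77 to 0.49 (exact p from 0.151 to 0.997 and from 0.103 to 0.919). Altogether 50 such relations were computed, of 10 genes in 5 sets of tumours, and their p-values are unadjusted.

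Since 8 of the 10 late tumours had a gap over 2 and no day 0 tumour did (0.28 to 0.58), the late difference and the gap are tied. With the gap as a covariate in limma, 0 of 10 genes were called in the late tumours, against 24.2% of all genes. The difference became 0.41 ± 1.34 (SE) for Myh1, 0.05 ± 1.06 for Tnnc2, 0.23 ± 0.90 for Mb and -0.04 ± 0.65 for Tnnt3. Without the 9 tumours of gap over 2, which leaves only late replicates 5 and 8, it was 0.01 ± 1.35, -0.02 ± 1.00, -0.07 ± 0.76 and 0.08 ± 0.58 for the same genes, again with 0 of 10 called and 28.2% of all genes. The share of RNA quality in the late difference and that of the days off the drug cannot be told apart here. The array set differs as well: 8 of the 10 late tumours lie in set 2, and all day 0 tumours lie in set 3.

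**Figure D5:**
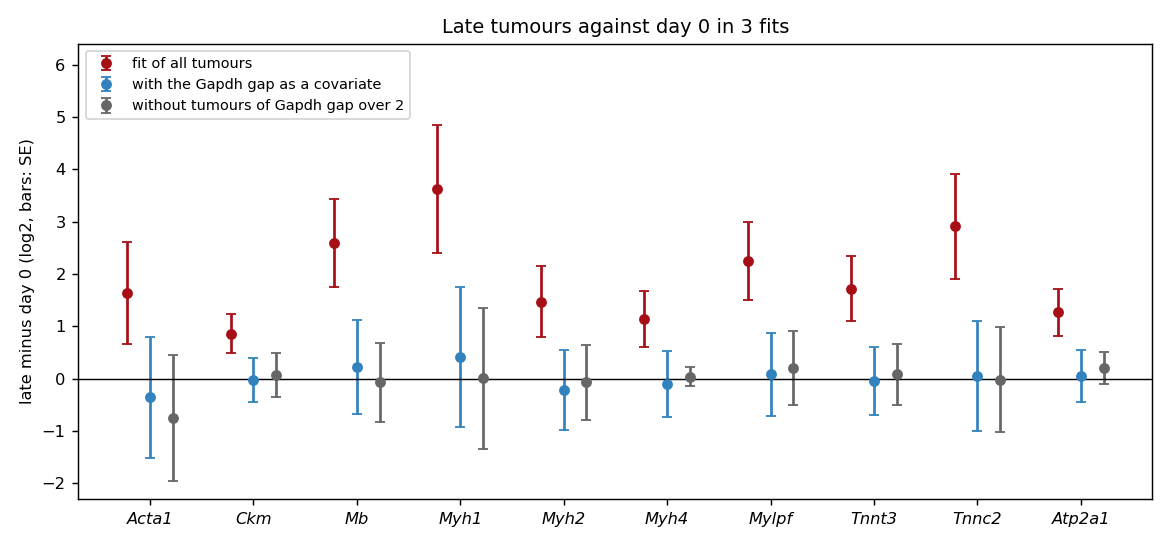
Difference of the late tumours from day 0 in log2 units (points) with its SE (bars) for the 10 genes in 3 limma fits: all 41 tumours, the same with the Gapdh gap as a covariate, and without the 9 tumours of gap over 2. The first lies between 0.86 (Ckm) and 3.63 (Myh1), the others between -0.75 (Acta1) and 0.41 (Myh1).

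Days 0 and 9 lie wholly in set 3 of the spike-in controls, so that their comparison is within 1 set, and late tumours can be set against day 0 within set 3 alone. There late replicates 9 and 10 exceeded the 4 day 0 tumours in all 10 genes without overlap, by 6.24 for Myh1, 4.33 for Tnnc2, 3.34 for Mb, 2.87 for Mylpf, 2.86 for Myh2, 2.84 for Acta1, 2.74 for Tnnt3, 2.00 for Atp2a1, 1.73 for Ckm and 0.96 for Myh4. Of all genes, 28.3% were higher in both late tumours than in every day 0 tumour. Both late tumours have a gap over 2 (2.41 and 4.41). The differences of the 10 genes here are those of the fit with a term for the spike-in set, and so are not a second result. The slope on the gap within set 1, where the gap ran only from -0.22 to 0.48, was called for 0 of 10 genes and 0% of all genes, with both signs among the 10. Within set 2 it was positive, between 0.33 and 1.38, for all 10 and called for 0 (adjusted p from 0.0751 to 0.228, 17.2% of all genes called). Within set 3 it was called for Tnnt3 (1.06, adjusted p = 0.0349), Atp2a1 (0.73, 0.0487) and Mb (1.43, 0.0495), against 1.81% of all genes. Set 3 holds 11 tumours, and days 16 and 29 have 1 each. Inside its groups the gap varies mainly through day 9 replicate 3 (2.34) and late replicate 10 (4.41), so these slopes rest on few tumours.

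Of 40 other genes of fast or general muscle fibres, 31 were tested, 20 rose in the late tumours, where 26.3% of all genes rose, and 1 fell, with a median of 1.04. Cox7a1, a muscle form of a respiratory chain subunit, rose by 2.83 (adjusted p = 4.95e-07), Tnni2 by 2.41 (0.00448), Eno3, muscle enolase, by 1.05 (0.000752) and Klhl40 by 0.79 (5.93e-05), while Tpm2, a tropomyosin, fell by 1.05 (0.000592). On the gap within groups 26 of the 31 had a called positive slope, where 14.3% of all genes had one; Cox7a1 (0.34, adjusted p = 0.0652), Klhl40 (-0.01) and Tpm2 (-0.06) were among those without. Of 8 slow fibre genes, 2 rose (Myoz2 by 1.34 and Csrp3 by 1.73) and 1 fell (Tnnc1, slow troponin C, fell by 0.50), with a median of 0.08 (0.05 over all genes), and 3 had a called positive slope on the gap. These lists read the same tumours as the 10 genes and are no independent support.

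Heart, smooth and developing muscle have genes of their own. They are counted here in the late tumours against day 0, where 26.3% of all genes rose and 46.4% changed. Of 9 cardiac genes 6 were tested, 0 rose and 2 fell (Nppb fell by 3.65 and Tnnt2 fell by 2.09), and Myh6 and Nppa, which define heart muscle, did not pass the filter. Of 10 smooth muscle genes 9 were tested, 4 rose and 1 fell. Of 16 genes of muscle precursors and developing fibres 9 were tested, 2 rose and 3 fell: Myh3, the embryonic heavy chain, rose by 1.48 and Musk by 0.28, while Chrna1, a subunit of the muscle acetylcholine receptor, fell by 1.85, Pax3 fell by 1.64 and Cdh15 fell by 0.68. Pax3 is also one of the melanocyte genes counted below. The defining precursor regulators Pax7, Myod1, Myf5 and Myog did not pass the filter. Differences between these lists were not tested.

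Genes of other host tissues are counted here against the same shares of all genes, 26.3% risen late and 21.0% with a called slope. The mean of 15 keratinocyte genes ran from 6.08 to 8.06 at day 0, 5.91 to 11.06 at day 2, 7.62 to 10.25 at day 3 and 5.62 to 10.71 in the late tumours. At day 3, 1 of the 15 was called, against 21.3% of all genes. In the late tumours 3 of the 15 rose, a share below that of all genes (Krt17 by 2.32, Krt15 by 1.66 and Trp63 by 1.84). Of 5 tested fat cell genes 2 rose, Fabp4 by 3.92 and Pparg by 1.41, and Lipe fell by 0.48, and 8 of 9 nerve and Schwann cell genes rose, among them Kcna1 by 5.40 and Mal by 5.27. The nerve genes had 0 of 9 called slopes on the gap, the fat genes 2 of 5 and the keratinocyte genes 1 of 15. Of 8 endothelial genes 4 rose, with 0 called slopes, and of 8 macrophage genes 1 rose and 1 fell, with 2 negative slopes. Of 10 melanocyte genes 4 rose (Kit by 1.57, Mitf by 1.22, Tyrp1 by 1.00 and Mlana by 0.69) and Pax3 fell, and 5 had positive and 1 negative called slopes on the gap. The part of these tissues in the muscle result was not tested.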

How the data were processed

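RNA of 41 mouse melanomas was measured on Affymetrix mouse genome arrays. The deposited table holds 1 linear intensity per probe set and array. The submitters' processing notes name RMA and MAS5, without saying which produced it, and a genome build is not given in the sources used here. Arrays have no sequencing depth.

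From the deposited intensity, log2(value + 16) was computed and quantile normalised over 45101 probe sets with limma 3.58.1 in R 4.3.3. The pseudocount understates changes of low genes. One model of the 41 tumours with group means (32 residual and 2.58 prior degrees of freedom) gave each group against day 0, an F test, and slopes on the Gapdh gap; days 16 and 29 entered no comparison. Genes were called at an adjusted p under 0.05, and adjusted p values are limma's. On simulated data the pipeline recovered nearly all set changes. This checks the code and does not show how often a change in the muscle genes would be found. Their residual SD ran from 0.65 to 2.15, against a median of 0.25 over all genes tested. Correlations used exact or 100000-resample permutation tests, two-sided. Spike-in sets were split at log2 levels of 12 (bioD) and 9.4 (dap).

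All 10 members were named, with the 12 genes most correlated with their mean and up to 4 genes per list of lowest late p. The genes, lists and rules were chosen with earlier results of these data known. Alternatives were other scalings, pseudocounts (1, 64), filters, probe set rules, limma settings, the spike-in set or the gap in the fit, and each tumour left out. Python 3.11.15 with matplotlib 3.10.9 made the figures.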

Additional observations from a re-analysis of the deposited data

Results flagged for a closer look

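In 6 of 66 sets of values, of 1 gene or the Gapdh gap in 1 group of 4 to 10 tumours, a single tumour lay far from the others by Dixon's criterion, where chance gives about 1 in 20. In day 1 replicate 2, Mylpf read 9.45 (nearest tumour 7.36) and Tnnt3 7.92 (nearest 6.21). Myh4 read 5.70 in day 2 replicate 1, with the next tumour at 4.66. Ckm read 6.60 in day 6 replicate 2, with the next at 5.75, and Mb read 6.65 in day 3 replicate 2, with the next at 6.13. The Gapdh gap of day 3 replicate 6 was 0.48, against 0 in the nearest tumour, and its muscle score was 5.41, within the day 0 range. The first 4 are tumours with high muscle scores (8.63, 8.13 and 7.37). No explanation of these values was tested.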

How the results depend on the processing

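Of the 6 genes called late, 0 remained called with the Gapdh gap as a covariate or without the tumours of gap over 2. In a fit of the compared groups alone 1 did, Myh1. Array weights gave 9, and leaving out single tumours 5 to 8. The spike-in set as a block gave 7, from late replicates 9 and 10 against day 0. Among the called genes signs turned for Tnnt3 with the gap as a covariate (-0.04), and without the tumours of gap over 2 for Tnnc2 (-0.02), Mb (-0.07) and the difference of muscle score (-0.03, from 1.95, or 1.65 to 2.19 without single tumours). Among the genes not called, Acta1 (-0.36), Ckm (-0.03), Myh2 (-0.22) and Myh4 (-0.11) turned with the covariate, and Acta1 (-0.75) and Myh2 (-0.07) without those tumours. Of the 10 called slopes on the gap, 5 remained with array weights, 0 without the tumours of gap over 2 (slopes all positive, 0.06 to 1.37), and, in fits added after the data had been seen, 3 without the late tumours, 0 within set 2 and 3 within set 3; single tumours left out gave 7 to 10. The F test called 1 gene, 2 with a pseudocount of 1, 0 with 64, 0 with no filter, 2 with a filter at the 60th percentile, 3 with every probe set tested, 5 with array weights, 0 with the gap as a covariate, 0 without the tumours of gap over 2, and 0 to 5 without single tumours. Slopes in the late tumours gave 0 to 1. Day 1 called 1 gene without the tumours of gap over 2 (Atp2a1, 0.63), and day 3 called 1 with every probe set tested, Myh1 by -0.17. Where not shown by fewer tumours or genes, the cause was not tested. Another 531 values of the member counts, the median residual SD and the difference of muscle score stayed near the reported value. For single called genes and counts over all genes, 1288 values stayed the same and 37 counts moved. Of the single called genes, 117 values lost the call with the same sign and 3 changed sign. Over all genes, slopes in the late tumours called 851 genes, 133 to 1206 without single tumours and up to 2824 with array weights. Slopes within groups called 3014 genes, 1704 to 3231 without single tumours and 3 without the tumours of gap over 2. They called 2461 genes within set 2, 259 within set 3 and fewer than 3014 without the late tumours. The F test called 8688 genes, 8090 to 8942 without single tumours, 5407 with the gap as a covariate and up to 11067 in other settings. Counts among the 10 genes were not tested against these totals. The median residual SD stayed between 0.87 and 1.55. No paired analysis was possible because the labels carry no replicate number, and those used here are names given by accession order.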
